A study of Mus musculus with 4 samples.

Results

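The expression of FOXO targets and of genes in the insulin receptor feedback loop was examined in fibroblasts undergoing reprogramming with and without activated AKT. These genes were chosen by name, with earlier results of these data known, and numbered 32. They comprised the 3 FOXO genes Foxo1, Foxo3 and Foxo4, the receptors and adaptors Insr, Igf1r, Erbb3, Irs1 and Irs2, the signalling regulators Pik3r1, Pik3ip1 and Rictor, and 21 genes described as transcriptional targets of FOXO factors. On the microarray they were covered by 44 probes in 62 spots, out of 55681 probes for 34964 genes or transcripts in 59305 spots that were not controls.

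Insulin and insulin-like growth factor receptors signal through IRS adaptors and PI3K to the kinase AKT. AKT phosphorylates FOXO transcription factors, which are then kept out of the nucleus, so that transcription of their target genes falls. Since genes of the receptors and of the IRS adaptors are themselves among the targets described for FOXO, the pathway holds a feedback loop in which strong AKT signalling can lower the expression of its own upstream components.

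The cells were mouse embryonic fibroblasts, prepared from pooled male embryos at embryonic day 13.5, that carried EGFP under the Oct4 promoter and enhancer as a transgene. All received retroviruses for Oct4, Sox2 and Klf4 (OSK), and part of them also received AKT-MER (OSKA), a myristoylated AKT fused to a modified estrogen receptor that is switched on by 4-hydroxytamoxifen (4OHT). 4OHT, or ethanol as the vehicle, was given from 3 days postinfection (dpi), and RNA was taken at 8 dpi. The groups were OSK - 4OHT, OSK + 4OHT, OSKA - 4OHT (AKT nonactivated) and OSKA + 4OHT (AKT activated), with 1 array each and all arrays on 1 slide, so that slide position and group cannot be told apart. Groups were read from the sample titles. The free text of the OSKA + 4OHT sample describes AKT-MER as not activated and contradicts its title.

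All levels below are log2 intensities from which the 75th percentile of their array was subtracted, and they are given in the order OSK - 4OHT, OSK + 4OHT, OSKA - 4OHT and OSKA + 4OHT. A difference is one array minus another on this log2 scale, and needed a probe well above background on both arrays. The error beside it is that of the scanner software for a single spot measurement and does not contain variation between cultures. With 1 array per group there were no replicates, so that no test was run and every difference describes a pair of arrays. In these unsorted cultures, fewer cells of a type and less RNA per cell cannot be told apart. The 75th percentile of intensity was 377 to 462 over the arrays, and 52.4 to 55.4% of spots were well above background. All 10 fibroblast markers examined were above background on all 4 arrays, as were all 5 blood markers. With 4OHT in OSKA cells the fibroblast markers had a median difference of 0.08, with Pdgfrb at -0.67. Of 6 epithelial markers 3 were lower, with Esrp1 at -1.27 at a dim level and Krt18 at 0.86. Among the blood markers, the level of Csf1r, a macrophage receptor, was 5.91 on the OSK - 4OHT array and 6.33 to 6.51 on the others. The median difference of the 5 blood markers was -0.17 between the OSKA arrays and 0.52 between the OSK arrays, and their part in the results below was not tested.

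The promoters were searched for motifs linked to FOXO factors. The 250 bases before to 50 bases after the annotated start were available for 27 of the 32 genes (RefSeq, GRCm38.p6). The FOXO motif GTAAACA, in either orientation, was present in 3 of these 27 genes, namely Sesn1, Trim63 and Txnip, and in 4.05% of 27025 genes. The insulin response element core CAAAACA, in either orientation, was present in 3 of the 27, namely Ccng2, Irs1 and Irs2, and in 7.2% of all genes. Irs1 held it at 2 places, whose first bases were at -111 and -32 relative to the start, and Irs2 held it once, at -37. The 250 bases before the start are shown for the adaptor genes, whose transcripts were among those with the lowest differences in OSKA cells, and for Txnip, a target with the FOXO motif. They are written 5′ to 3′ on the strand of the gene, with the motif in capitals.
Irs1, chr1:82291440-82291689, minus strand: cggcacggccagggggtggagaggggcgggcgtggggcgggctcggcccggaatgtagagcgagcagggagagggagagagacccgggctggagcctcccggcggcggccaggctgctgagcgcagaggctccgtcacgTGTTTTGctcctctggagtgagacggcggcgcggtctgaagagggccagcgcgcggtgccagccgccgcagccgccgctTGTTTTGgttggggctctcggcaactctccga
Irs2, chr8:11008930-11009179, minus strand: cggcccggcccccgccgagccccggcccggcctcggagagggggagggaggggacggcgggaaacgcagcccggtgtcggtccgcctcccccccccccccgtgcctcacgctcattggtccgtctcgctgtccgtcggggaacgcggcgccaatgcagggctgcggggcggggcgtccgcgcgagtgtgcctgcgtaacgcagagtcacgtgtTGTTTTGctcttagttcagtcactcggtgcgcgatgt
Txnip, chr3:96557707-96557956, plus strand: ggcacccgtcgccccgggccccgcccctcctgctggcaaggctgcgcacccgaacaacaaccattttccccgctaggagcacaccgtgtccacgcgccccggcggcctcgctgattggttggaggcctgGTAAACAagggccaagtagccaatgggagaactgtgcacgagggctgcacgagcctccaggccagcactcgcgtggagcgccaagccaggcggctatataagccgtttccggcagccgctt
In both adaptor genes the motif reads TGTTTTG, the reverse complement of the core. A match describes letters in this window only and was not tested as a binding site.

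More of the genes were lower with 4OHT than without it in OSKA cells, which was not seen in OSK cells. Of the 32 genes, 29 were above background on all 4 arrays, Erbb3 and Trim63 on none, and Tnfsf10 on the OSKA + 4OHT array alone. In OSKA cells, 21 of 29 were lower with 4OHT than without, against 54.8% of all 20363 genes measured in this comparison, and their median difference was -0.25, against -0.03 over all genes. The genes were chosen with earlier results of these data known, and the part of that choice in the counts given here and below was not tested. In OSK cells, 13 of 29 were lower with 4OHT, against 50.6% of all genes, and the median was 0.04. With spike-in scaling, in a form chosen after seeing the data, which lowered the median of all genes in OSK cells to -0.29, 26 of 29 were lower there, with a median of -0.25. At least 1.5-fold lower were 8 of 29 in OSKA cells (4.64% of all genes) and 0 of 29 in OSK cells (1.64%). With normexp background correction and its added offset of 50, which by construction shrinks the differences of dim probes, the count in OSKA cells was 4 (1.41% of all genes), namely Irs1, Irs2, Igf1r and Pik3ip1, so that Foxo4, Klf15, Fbxo32 and Rictor did not reach 1.5-fold. Fbxo32 also missed it under quantile normalization and spike-in scaling, which gave 7 each (4.24% and 4.41% of all genes). With another Foxo4 probe, which overlaps the brightest, Foxo4 missed it and the count was also 7 (4.63% of all genes). At least 2-fold lower were 3 of 29 in OSKA cells (0.899% of all genes) and 0 in OSK cells (0.276%). The 3 genes were Foxo4, Klf15 and Irs2, and Foxo4 is among them only by a probe that an overlapping probe did not bear out. With the overlapping probe, chosen after its values were seen, the count at least 2-fold lower was 2, and with normexp background correction it was 1. In the other direction, 1 gene of 29, Pik3r1, reached 2-fold higher with 4OHT in OSKA cells (2.01% of all genes), and it was also the single gene at least 1.5-fold higher (5.06%). In OSK cells none was 2-fold higher (0.617%), and 1, Foxo4, was 1.5-fold higher (4.35%). That difference, 0.61 with the brightest probe, was 0.40 with the overlapping probe, and the count was 0 with that probe, with the mean of probes, with normexp and under spike-in scaling.

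The comparison of OSKA with OSK cells gave a like picture, though it is not independent, since every comparison shares its arrays with others. With 4OHT, 21 of 29 genes were lower in OSKA cells (57.1% of all genes), 9 of them at least 1.5-fold (5.1%) and 3 at least 2-fold (1.12%), and the median was -0.27, against -0.05 over all genes. The 3 were Klf15, Irs2 and Igf1r. Among the 9, Pik3ip1 was at -0.66 with its brightest probe, -0.09 with the other and -0.38 as the mean of both, so that the count was 8 with means over probes (4.96% of all genes). With normexp background correction the count at least 2-fold lower was 1, as Klf15 came to -0.65 and Igf1r to -0.985. Pik3r1 was again at least 2-fold higher (1 of 29, 1.92% of all genes), a difference of 1.05 that was 0.91 under spike-in scaling and 0.997 with normexp, just short of 2-fold (0 of 29), and Sesn3 joined it at 1.5-fold (2 of 29, 5.46%). Without 4OHT, 12 of 29 were lower (53.0% of all genes), none of them by 1.5-fold (3.98%) or 2-fold (0.928%), and the median was 0.07. Under spike-in scaling, 27 of 29 were lower in that comparison, with a median of -0.38 beside -0.46 over all genes, and 5 were at least 1.5-fold lower (28.6% of all genes). Foxo4 was at least 2-fold higher there (1 of 29, 1.09% of all genes), though at 0.04 with the overlapping probe, 0.73 with normexp and 0.85 as a mean over probes, and Sesn3 in addition at 1.5-fold (2 of 29, 5.67%). Across the 4 arrays, 17 of 29 genes had their lowest level on the OSKA + 4OHT array, as did 37.5% of the 19599 genes measured on all arrays. The highest level was on that array for 6 of 29 genes and for 27.3% of all genes.

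**Figure D1:**
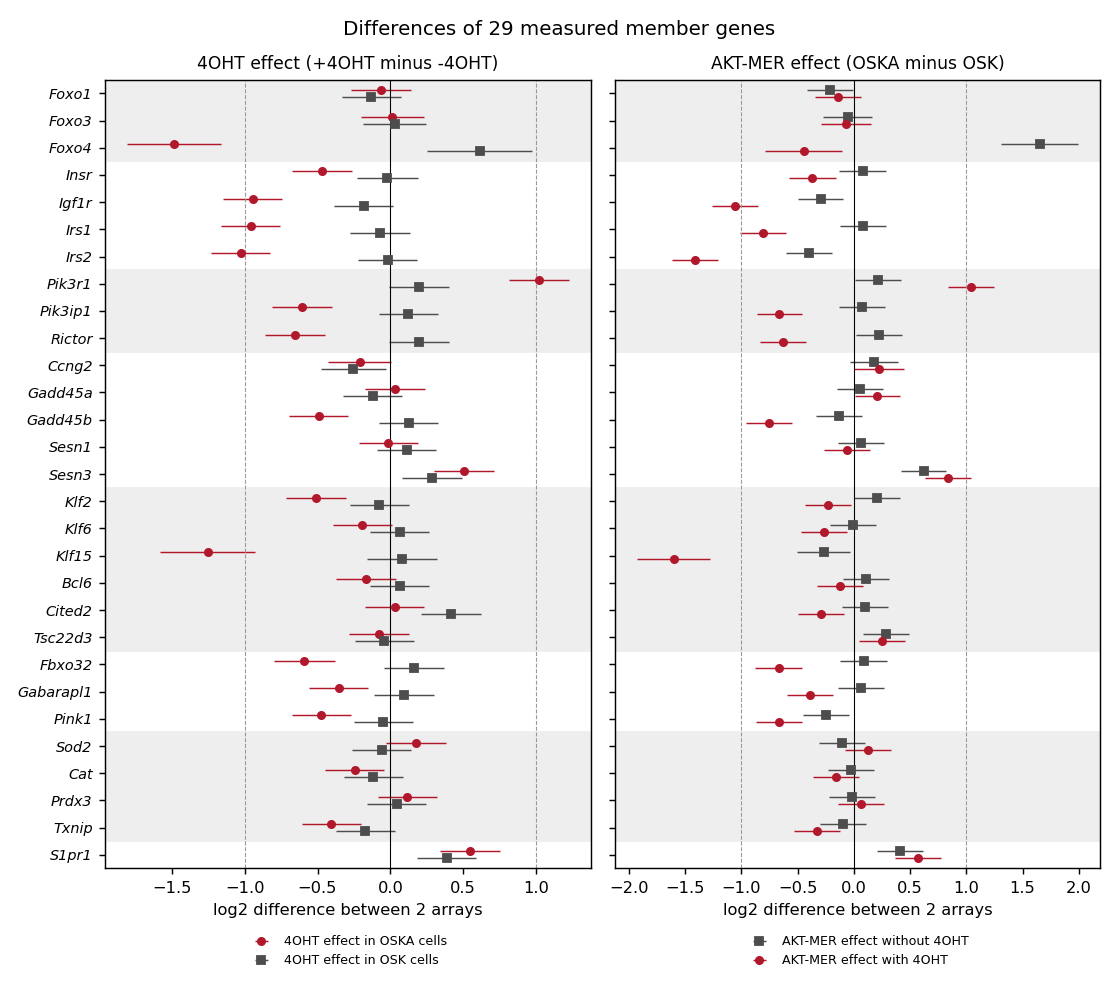
Log2 differences of the 29 measured genes between 2 arrays. The left panel shows the 4OHT effect in OSKA cells (red circles) and in OSK cells (grey squares), and the right panel the AKT-MER effect with 4OHT (red circles) and without (grey squares). Bars are the error of the scanner software, dashed lines mark 2-fold, and the shading separates genes by role. Irs2, Klf15 and Foxo4 lie beyond the 2-fold line on the lower side in the left panel, and Pik3r1 on the higher side.

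The transcripts of the FOXO factors themselves were looked at probe by probe. Foxo1, which encodes the FOXO factor best known in insulin signalling, was at 2.32, 2.19, 2.11 and 2.04. Its second probe was at 1.62, 1.54, 1.39 and 1.37. By both probes Foxo1 was lower by little on the OSKA arrays, and the difference with 4OHT in OSKA cells, -0.07 ± 0.20 and -0.02 ± 0.20, was within the error of the measurement. Foxo3 was at -2.25, -2.22, -2.31 and -2.29, so that the 4 arrays lay within 0.084 of each other. That probe was designed on a cDNA clone and was not matched to the gene by its accession. The Foxo3 probe for the RefSeq transcript was at -5.05, -3.47, -3.99 and -4.32, well above background on the OSK + 4OHT and OSKA - 4OHT arrays only. No difference with 4OHT was therefore formed from this dim probe, in OSK or in OSKA cells. Its lower level with 4OHT in OSKA cells, by -0.33, was within the error of the OSKA + 4OHT level, 0.34. The brighter probe showed no such changes.

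Foxo4 was covered by 3 probes, which gave different pictures. The brightest was at -4.01, -3.40, -2.36 and -3.84, which made the OSKA - 4OHT array stand 1.65 ± 0.34 above the OSK - 4OHT array and the difference with 4OHT in OSKA cells -1.49 ± 0.32. With normexp background correction that difference was -0.56, and as a mean over probes it was -0.73. A second probe was at -3.95, -3.55, -3.91 and -3.87, and its difference with 4OHT in OSKA cells was 0.04 ± 0.31. Between the OSKA - 4OHT and OSK - 4OHT arrays the second probe differed by 0.04 ± 0.31, so that the elevation on the OSKA - 4OHT array was seen with the brightest probe alone, although both read almost the same bases of the transcript. They lie on the X chromosome, plus strand, at chrX:98454966-98455025 and chrX:98454974-98455033 (NCBI37, mm9), start 8 bases apart and share 52 of their 60 bases. The first 30 bases of each are shown 5′ to 3′, with the bases common to both probes in capitals.
Foxo4, brightest probe: actttagaGCTAAGGATTGGTGGCAACACA
Foxo4, second probe: GCTAAGGATTGGTGGCAACACACTCAAGTG
Both were dim, with intensities of 26.7 to 78.6 for the brightest probe, and each value came from 1 spot. The remaining Foxo4 probe, at another place in the gene, stayed below the mark for well above background on all arrays.

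**Figure D2:**
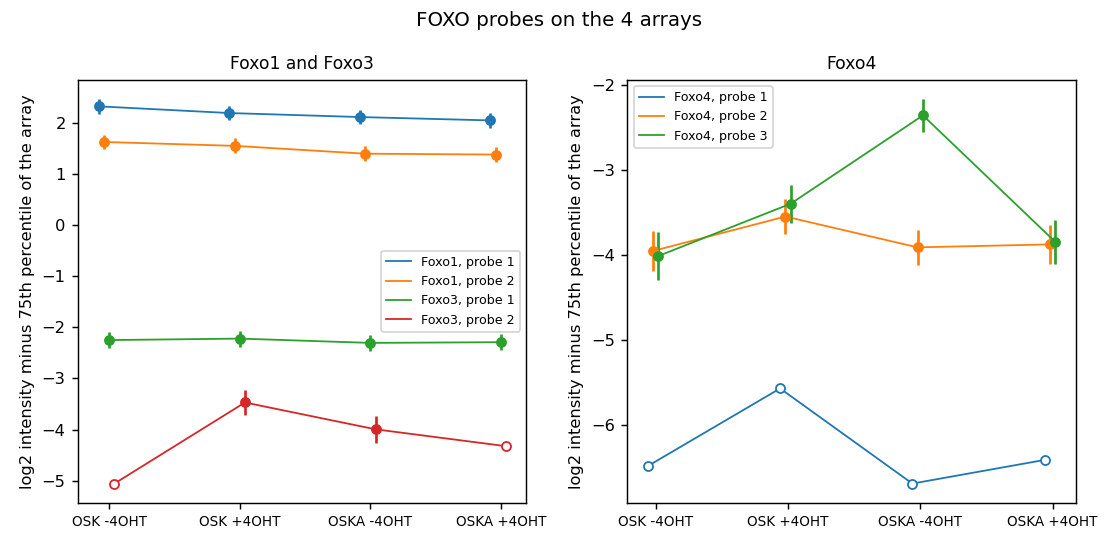
Levels of each FOXO probe on the 4 arrays, as log2 intensity minus the 75th percentile of the array. Points with bars were well above background and show the error of the scanner software, and open points were not well above background. Foxo1 and the brighter Foxo3 probe stay nearly level, whereas Foxo4 probe 3 stands 1.65 higher on the OSKA - 4OHT than on the OSK - 4OHT array, against 0.04 for probe 2, which overlaps it.

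The adaptors and receptors of the insulin pathway were lowest on the OSKA + 4OHT array by most probes. Irs2, an adaptor that links the receptors to PI3K, was at 4.86, 4.84, 4.46 and 3.43 with a probe at chr8:11004490-11004549 on the minus strand (NCBI37, mm9). With 4OHT its level in OSKA cells was 0.491 of that without, a difference of -1.03 ± 0.20, whereas the difference in OSK cells was -0.02 ± 0.20. Counted from the lowest, Irs2 ranked 156 of the 20363 genes measured in OSKA cells. The OSKA + 4OHT array stood -1.41 ± 0.20 from the OSK + 4OHT array for Irs2, and a smaller difference of the same sign, -0.40 ± 0.20, was seen between the arrays that had no ligand.

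Irs1, the other widely expressed adaptor, was at 3.96, 3.89, 4.04 and 3.08 with its brighter probe, at chr1:82229692-82229751 on the minus strand (NCBI37, mm9). The first 3 arrays lay close together, and the OSKA + 4OHT array differed by -0.96 ± 0.20 from the OSKA - 4OHT array, a ratio of 0.514. The second Irs1 probe, at -0.86, -0.54, -0.34 and -1.13, gave -0.80 ± 0.21. By that probe the OSK + 4OHT and OSKA - 4OHT arrays stood above the OSK - 4OHT array by 0.32 and 0.52, which the brighter probe did not show.

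Igf1r, the receptor of insulin-like growth factor, was at 3.66, 3.47, 3.36 and 2.42. Its difference with 4OHT was -0.95 ± 0.20 in OSKA cells and -0.18 ± 0.20 in OSK cells. Insr, the insulin receptor, was covered by 3 probes. By the brightest it was at -0.91, -0.93, -0.83 and -1.30, a difference of -0.47 ± 0.21 with 4OHT in OSKA cells, and by the others the difference was -0.39 ± 0.22 and -0.70 ± 0.28. All 3 probes were therefore lower with 4OHT in OSKA cells, but 1 of them (-2.26, -1.95, -1.88 and -2.27) was at about the same level on the OSKA + 4OHT and OSK - 4OHT arrays. Erbb3, a receptor of the neuregulins, stayed below the mark for well above background on all arrays.

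Subtracting the OSK difference from the OSKA difference gave -1.01 ± 0.29 for Irs2, -0.89 ± 0.29 for Irs1 and -0.76 ± 0.29 for Igf1r. For Insr the same subtraction gave -0.45 ± 0.29.

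**Figure D3:**
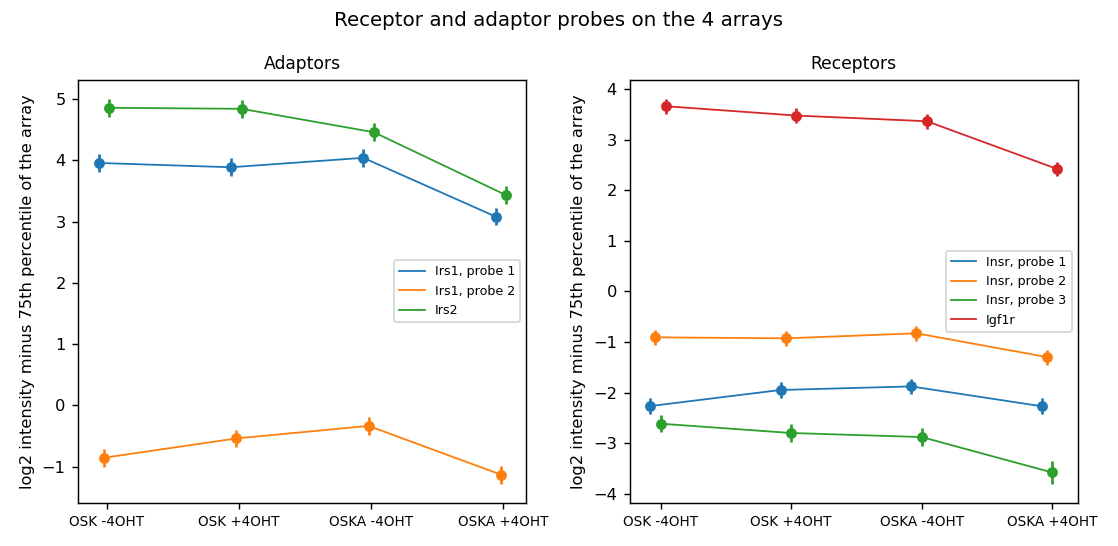
Levels of the adaptor probes (left) and receptor probes (right) on the 4 arrays, as log2 intensity minus the 75th percentile of the array, with the error of the scanner software as bars. Both Irs1 probes, Irs2 and Igf1r have their lowest point on the OSKA + 4OHT array, with Irs2 at 3.43 and Igf1r at 2.42, and probe 1 of Insr is as low on the OSK - 4OHT array (-2.26) as there (-2.27).

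The regulators of PI3K and of the AKT kinase complex differed in both directions. Pik3r1, which encodes the p85 alpha regulatory subunit of PI3K, was at 0.33, 0.53, 0.55 and 1.57. It stood 1.02 ± 0.20 higher with 4OHT in OSKA cells, a ratio of 2.03, and 0.20 ± 0.21 higher in OSK cells. Pik3ip1, an inhibitor of PI3K, was at 3.24, 3.37, 3.31 and 2.71, a difference of -0.61 ± 0.20 with 4OHT in OSKA cells, whereas that in OSK cells was 0.12 ± 0.20. A second and much dimmer Pik3ip1 probe was at -2.52, -3.23, -2.53 and -3.32, lower with 4OHT in OSKA cells (-0.79 ± 0.27) and by a like amount in OSK cells (-0.71 ± 0.27). The probes of Pik3ip1 thus disagree on whether OSK cells differed with 4OHT. Rictor, a subunit of the complex that phosphorylates AKT at its hydrophobic motif, was at -0.00, 0.19, 0.22 and -0.44, and its difference with 4OHT was -0.66 ± 0.21 in OSKA cells and 0.20 ± 0.21 in OSK cells.

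Of the FOXO targets that encode transcription factors and their regulators, Klf15 had the lowest difference. Klf15, a factor in gluconeogenesis and amino acid breakdown, was at -2.74, -2.66, -3.01 and -4.26, and its difference with 4OHT was -1.25 ± 0.33 in OSKA cells and 0.08 ± 0.24 in OSK cells. Its intensity was 69.2, 59.7, 50.1 and 20.0, close to background on the last array, and the difference was -0.41 with normexp and its offset. Correction and offset were not tested apart. Klf2, a factor of endothelial and T cells, was at 2.88, 2.81, 3.09 and 2.58, and the difference in OSKA cells was -0.51 ± 0.20. Klf6, Bcl6, Tsc22d3 and Cited2 differed by -0.19 to 0.03 with 4OHT in OSKA cells, within the error of the measurement. Cited2, a co-regulator of CBP and p300, was instead higher on the OSK + 4OHT array by 0.42 ± 0.20 with its brightest probe and by 0.09 ± 0.20 with the other.

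Fbxo32, Pink1 and Gabarapl1, which act in protein breakdown, mitophagy and autophagy, were lower with 4OHT in OSKA cells. Fbxo32, the muscle ubiquitin ligase atrogin-1, was at -1.20, -1.04, -1.11 and -1.71, a difference of -0.59 ± 0.21 in OSKA cells and 0.16 ± 0.21 in OSK cells. Its probe was spotted 10 times, and the spots on the OSKA + 4OHT array, from -1.88 to -1.64 with 1 spot left out, did not overlap those on the OSKA - 4OHT array, from -1.24 to -1.01. The repeated spots show the precision within an array and are not replicates of the culture. Of the muscle markers examined, Myod1, Myog, Ckm and Mylpf were not well above background on any array, whereas Acta1 was above background on all and differed by -1.17 with 4OHT in OSKA cells. Des was well above background on the OSKA - 4OHT array alone, at -4.03. The part of such cells in the Fbxo32 difference was not tested. Trim63, the other muscle ubiquitin ligase known as a FOXO target, was not well above background by either of its probes.

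Pink1, a kinase that marks damaged mitochondria, was at 3.54, 3.49, 3.29 and 2.82, with a difference of -0.47 ± 0.20 between the OSKA arrays and -0.05 ± 0.20 between the OSK arrays. Gabarapl1, an autophagosome protein, was at 5.91, 6.003, 5.97 and 5.62, a difference of -0.36 ± 0.20 in OSKA cells. Both genes had their lowest level on the OSKA + 4OHT array.

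Stress and cell cycle targets were divided. Gadd45b, a stress sensor that acts on growth arrest, was at 3.74, 3.87, 3.61 and 3.12, and differed with 4OHT by -0.49 ± 0.20 in OSKA cells, while its relative Gadd45a was at 0.91, 0.79, 0.97 and 1.001 and differed by 0.03 ± 0.20. Ccng2, a cyclin of growth arrest, differed by -0.21 ± 0.22 in OSKA cells and by -0.25 ± 0.22 in OSK cells. Sesn1, a stress-induced regulator of mTORC1, differed by -0.01 ± 0.20 in OSKA cells. Sesn3, its relative and a direct FOXO target, was at 0.59, 0.88, 1.21 and 1.72, highest on the OSKA + 4OHT array.

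In the absence of 4OHT, Sesn3 was 0.62 ± 0.20 higher with AKT-MER, but 0.18 higher under spike-in scaling, and 4OHT added 0.51 ± 0.20 in OSKA cells. S1pr1, a sphingosine-phosphate receptor of lymphocytes and endothelium, was at 0.83, 1.22, 1.24 and 1.78, higher with 4OHT by 0.55 ± 0.20 in OSKA cells and by 0.39 ± 0.20 in OSK cells. Of 6 endothelial markers, Pecam1, Kdr and Tek were well above background on all 4 arrays, and Cdh5, Tie1 and Emcn on none. With 4OHT, Kdr differed by 0.23 in OSKA and 0.73 in OSK cells with its brightest probe, and by -0.24 in OSKA cells with its other probe. Tek differed by -0.44 and -0.56, and Pecam1 by -0.00 and -0.01. The part of such cells in the S1pr1 difference was not tested. For Sesn3 and S1pr1 the OSKA difference minus the OSK difference was within its error, at 0.22 ± 0.29 and 0.16 ± 0.29. Tnfsf10, the death ligand TRAIL, was well above background on the OSKA + 4OHT array alone. Its level there was -4.44 at a dim intensity of 17.7, and no difference was formed.

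Among targets of the redox defence, Sod2, Prdx3 and Cat differed little and Txnip was lower. Sod2, the mitochondrial superoxide dismutase, was at 4.67, 4.61, 4.56 and 4.73, and its difference with 4OHT in OSKA cells was 0.18 ± 0.20. Prdx3, a mitochondrial peroxidase, was at 2.05, 2.09, 2.04 and 2.15 with its 10 spots, a difference of 0.12 ± 0.20. Cat, the catalase, differed by -0.25 ± 0.20 with its brightest probe and by 0.02 ± 0.21 with the other. Txnip, an inhibitor of thioredoxin and of glucose uptake that carries the FOXO motif shown above, was at 2.52, 2.35, 2.43 and 2.02. Both Txnip probes had a negative difference with 4OHT in OSKA cells, of -0.40 ± 0.20 and -0.36 ± 0.21, and also in OSK cells, of -0.17 ± 0.20 and -0.27 ± 0.21.

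Other genes of the pathway, in lists also chosen with earlier results of these data known, were compared with these. Of 32 core genes of PI3K and AKT signalling, 13 were lower with 4OHT in OSKA cells, against 54.8% of all genes, and the median was 0.02. Pik3cb, a catalytic subunit of PI3K, was the single core gene at least 1.5-fold lower (-0.73 ± 0.21, 4.64% of all genes), and Pik3r3 and Foxo6 were the only ones at least 1.5-fold higher (2 of 32, 5.06% of all genes). Pik3r3, the p55 gamma regulatory subunit of PI3K, was at 0.47, 0.49, 1.06 and 2.94, a difference of 1.88 ± 0.20 in OSKA cells and 0.02 in OSK cells. Foxo6, the FOXO gene best known in brain, was at -0.33, -0.92, -0.91 and 0.63, higher by 1.54 ± 0.21 with 4OHT in OSKA cells and with a difference of -0.59 in OSK cells. A second Foxo6 probe gave no difference in OSKA cells, since it was not above background on both arrays.

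The regulatory subunits Pik3r1 and Pik3r3 were thus higher by at least 2-fold, whereas Pik3r2 differed by 0.23 ± 0.20. Akt1 and Akt2 differed by 0.09 and 0.14. Of 16 partners and regulators of FOXO proteins, 3 were lower (54.8% of all genes), the median was 0.02 and none differed by 1.5-fold.

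Of 20 further genes described as FOXO targets, 16 were measured in OSKA cells with and without 4OHT. Lower were 9 of these (54.8% of all genes), their median was -0.09, and none was 1.5-fold lower. At least 1.5-fold higher were 3 of them (5.06% of all genes). Ddit4, an inhibitor of mTORC1, was at 4.04, 3.93, 4.53 and 5.41, a difference of 0.87 ± 0.20 in OSKA cells and -0.12 in OSK cells. Bnip3, a mitophagy receptor, was higher by 0.59 ± 0.20 with its brightest probe and by 0.59 and 0.68 with the other probes, and Ppargc1a, a coactivator of mitochondrial biogenesis, by 0.72 ± 0.28 at a dim level.

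**Figure D4:**
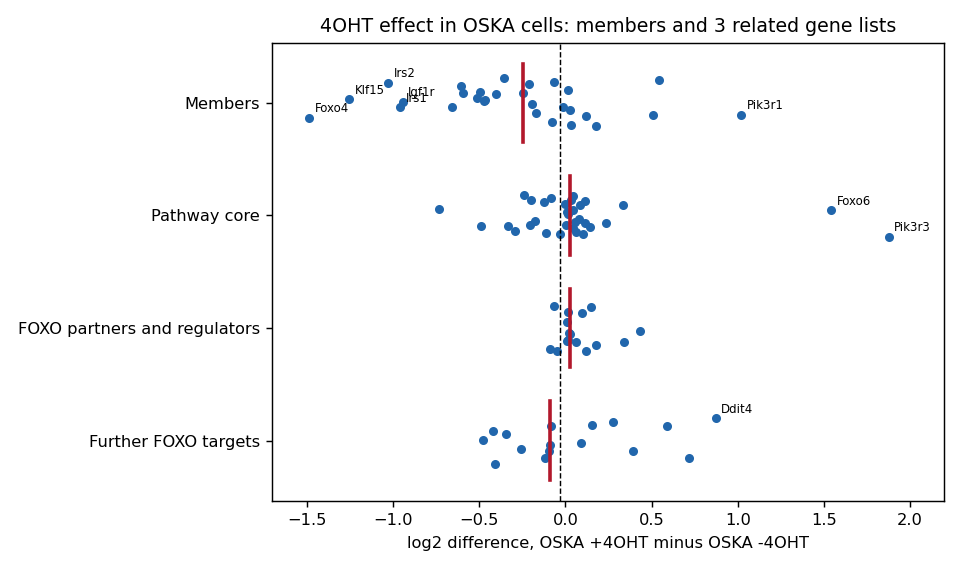
Log2 differences between the OSKA + 4OHT and OSKA - 4OHT arrays for the 29 measured genes (Members) and for 3 related lists. Each point is a gene, red bars are list medians, the dashed line is the median of all genes, and vertical position within a row is arbitrary. The median of the members lies at -0.25, against 0.02, 0.02 and -0.09 for the other lists, and Pik3r1, Pik3r3, Foxo6 and Ddit4 are the named genes on the higher side.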

How the data were processed

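Cy3-labelled RNA was hybridised to 1-colour Agilent arrays, and the scanner intensities deposited by the authors had been background-corrected by Feature Extraction 10.7.3.1, with surrogate values for signals not above background and nothing normalized between arrays. From these, log2 intensities minus the 75th percentile of each array were computed (Python 3.11.15, limma 3.58.1 for normexp with an offset of 50). Spots marked as uneven or outliers were left out, 104 to 155 per array and 1 among the genes described. Repeated spots were averaged, and a gene was represented by its brightest probe. Of the 44 probes, 41 matched the same gene by RefSeq accession. Counts used 2-fold and 1.5-fold differences. Groups came from sample titles, and 4 contrasts were formed. All the chosen genes were accounted for, with values on 4 arrays for those at least 1.5-fold changed, and genes outside the list were named if 1.5-fold changed in OSKA cells. The genes and lists were chosen with earlier results of these data known. The alternatives were other filters, scalings, background correction, the deposited series matrix and means over probes. Spike-in scaling used the median deviation of 7 spike-in probes, a form chosen after seeing the data, when the planned median over pooled spike-in spots gave an implausible shift. Promoter windows were from RefSeq. A search for AKT sites in FOXO proteins was not run.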

Additional observations from a re-analysis of the deposited data

How the results depend on the processing

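The median difference with 4OHT in OSKA cells and the number of genes lower kept their direction under each alternative run, at -0.25 to -0.20 and 20 to 21 of the genes measured. Spike-in scaling moved the median of all genes to -0.29 for 4OHT in OSK cells and to -0.46 for AKT-MER without 4OHT, and the chosen genes with it: their medians became -0.25 and -0.38, and 26 and 27 of 29 were lower. With normexp and its offset of 50, 1 gene was at least 2-fold lower in OSKA cells with 4OHT against either control, in place of 3. At 1.5-fold in place of 2-fold, with the scaling and background correction of the report, the counts were 8 and 9 (4.64% and 5.1% of all genes), and with normexp 4 and 7 (1.41% and 1.97%). Differences of single genes were recomputed only where they were at least 1.5-fold with the processing of the report. Of the recomputed values, 173 stayed within the error of the scanner software, 10 moved by more, and 1 reversed. Many of the 173 had no way to move. The other filters kept the same probes, means over probes leave genes with 1 probe unchanged, and another Foxo4 probe changes Foxo4 alone. The series matrix holds almost the same intensities. The 173 are therefore no measure of stability. The reversed value was the Foxo4 difference in OSKA cells, 0.036 with the overlapping probe, an alternative chosen after seeing the data. Klf15 was -0.41 with normexp. The spike-in scaling used here was also chosen after seeing the data, and the planned median of pooled spike-in spots was not kept. Pik3r1 with AKT-MER and 4OHT was 1.05, and at 0.91 under spike-in scaling and 0.997 with normexp it fell just short of 2-fold. No paired analysis was possible because each group held 1 array. Dim probes such as Foxo4 and Klf15, near background, limit the size of their differences, and 1 array per group limits all of them.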
